A study of Mus musculus with 2 samples.

Results

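The Reg lectins and the serum amyloid A proteins are small secreted proteins of the gut epithelium, and their 10 mouse genes (Reg1, Reg2, Reg3a, Reg3b, Reg3d, Reg3g, Reg4, Saa1, Saa2 and Saa3) were read in small intestinal epithelial cells with and without miR-215, a microRNA made in intestinal epithelium. The members were taken by gene symbol, and all 10 were among the 23284 genes listed in each library. The study made 1 mRNA library from miR-215-/- small intestinal epithelia and 1 from miR-215+/+ small intestinal epithelia. Not given in the sources used here were strain, age, sex, the number of animals behind a library and the extent of the deletion. With 1 library per genotype no difference has a replicate check and none is tested, so "higher" and "lower" describe the miR-215-/- library relative to the miR-215+/+ library.

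The deleted gene itself, Mir215, was listed at 0 in the miR-215-/- library and at 137 FPKM in the miR-215+/+ library, a value that is imprecise for so short a gene. The libraries were alike in breadth, with 15700 genes above 0 in miR-215-/- and 15445 in miR-215+/+. Apoa1, an apolipoprotein gene of enterocytes, had 17185 FPKM in miR-215-/- and 18904 FPKM in miR-215+/+, and all 14 enterocyte markers were kept.

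Reg proteins are built on a C-type lectin fold. Reg3g binds the peptidoglycan of Gram-positive bacteria and Reg3b acts mainly on Gram-negative bacteria, and together they help to keep bacteria away from the villus surface. Their genes, like those of serum amyloid A, are induced in epithelium by bacterial contact and by the cytokine IL-22, which signals through STAT3. Serum amyloid A is an acute phase protein that travels on high-density lipoprotein. It is made in liver and also in ileal epithelium, where it promotes Th17 cells, the lymphocytes named in the title of the study.

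The product of the deleted gene is shown first, because its seed, bases 2 to 8 from the 5′ end, is what it reads in target transcripts. The seed is in capitals, and miR-192-5p, encoded on another chromosome, has the same seed. Both mature sequences are RefSeq's on GRCm38.p6, at chr1:185313610-185313630 on the plus strand and at chr19:6264857-6264877 on the plus strand.
miR-215-5p: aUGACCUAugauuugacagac
miR-192-5p: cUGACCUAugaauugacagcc
The heptamer that pairs with this seed is TAGGTCA. It was in none of the annotated 3′ UTRs of the 7 Reg genes, nor in those of Saa1 and Saa2. The longest 3′ UTR of Saa3, that of a 2200-nt transcript, held 1 match, and the 128-nt 3′ UTR of the 555-nt Saa3 transcript held none. The match starts at base 146 of that UTR and reads ggtgaaatctgTAGGTCAaagatgtagac. The annotated 3′ UTRs of the Reg genes were 108 to 383 nt long. Of the 10078 expressed genes with an annotated 3′ UTR, 6.83% held the heptamer in their longest one, and the median length of these was 1104 nt. A match, or none, is a description of letters and no measure of regulation.

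Levels are in FPKM, which counts fragments per length of transcript and per depth of library, so that genes can be set side by side. Reg3b had 6939 FPKM in the miR-215-/- library and 5343 FPKM in the miR-215+/+ library, and was the 7th highest gene of the miR-215-/- library and the 9th of the miR-215+/+ library. Reg3g had 2628 FPKM in the miR-215-/- library and 2441 FPKM in the miR-215+/+ library. Reg1, first described as the pancreatic stone protein, had 411 FPKM in the miR-215-/- library and 2110 FPKM in the miR-215+/+ library. Both bactericidal lectins were thus near the top of either library, while Reg1 was the 270th highest gene of the miR-215-/- library and the 33rd of the miR-215+/+ library. Reg3a, another secreted lectin of the same branch, had 225 FPKM in the miR-215-/- library and 533 FPKM in the miR-215+/+ library. Reg4, made by enteroendocrine and other secretory cells, had 98.4 FPKM in the miR-215-/- library and 107 FPKM in the miR-215+/+ library. Saa1 had 49.5 FPKM in the miR-215-/- library and 88.7 FPKM in the miR-215+/+ library. The remaining members were low. Reg3d, known from pancreas, had 1.03 FPKM in the miR-215-/- library and 1.97 FPKM in the miR-215+/+ library. Saa3 had 1.84 FPKM in the miR-215-/- library and 0.953 FPKM in the miR-215+/+ library. Reg2, a close relative of Reg1, was listed at 0 in the miR-215-/- library and at 0.212 FPKM in the miR-215+/+ library, and Saa2 was listed at 0 in both. An exact 0 can be a failed estimate in such files: Rpl26, a ribosomal protein gene that every cell uses, was listed at 0 in both libraries. Every gene given at 0, Saa2 included, is therefore only listed at 0, and its absence is not shown.

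**Figure D1:**
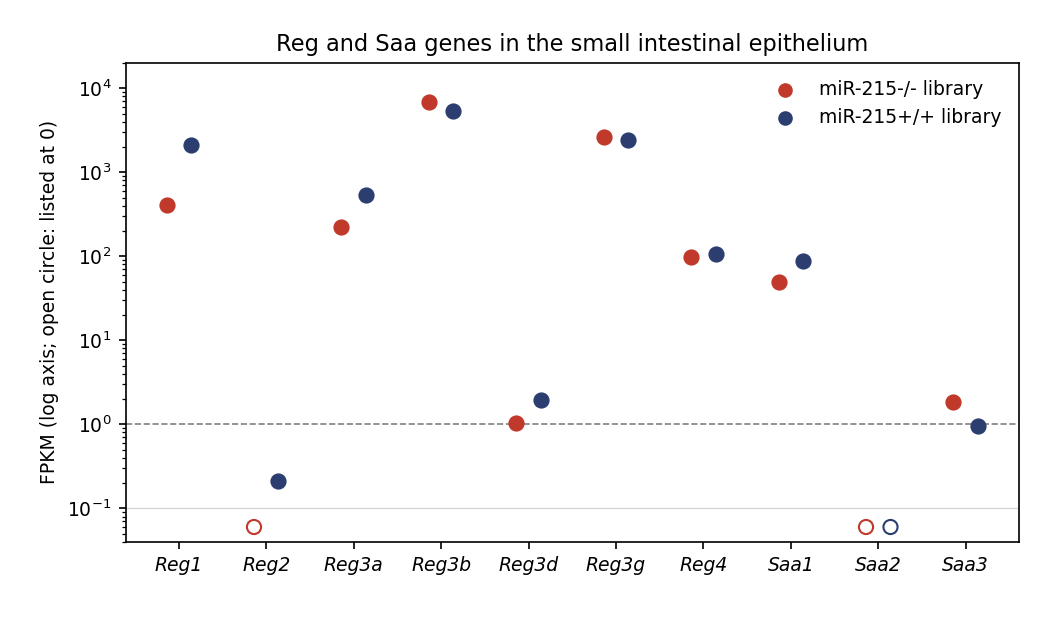
FPKM (log axis) of the 10 genes in the miR-215-/- library (red) and the miR-215+/+ library (blue), 1 point per library, with open circles for genes listed at 0 and a dashed line at 1 FPKM. Reg1 is at 411 FPKM in miR-215-/- and 2110 FPKM in miR-215+/+, while Reg3b is at 6939 FPKM in miR-215-/- and 5343 FPKM in miR-215+/+.

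Differences were put on a log2(FPKM + 1) scale, miR-215-/- minus miR-215+/+, which understates the change of low genes, and genes were counted by a size of 2-fold or more on this scale, which is no test of significance. A gene was kept where either library reached 1 FPKM. This left 11504 genes and 8 of the 10 members, all but Reg2 and Saa2. Of the 8, Reg1 and Reg3a were at least 2-fold lower and 0 were at least 2-fold higher, where 2.04% of all kept genes were lower by that much, 1.34% were higher and 3.38% were apart either way. As deposited, 154 of all kept genes were higher and 235 lower by 2-fold, a split that turned to 233 higher and 178 lower when sums were made equal without the members, short genes and the 10 highest genes. The 6 kept Reg genes had a median log2 ratio of -0.33, against -0.05 over all kept genes, and they went both ways, from -2.36 to 0.38.

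Reg1 had a log2 ratio of -2.36, which is 5.13-fold lower in FPKM. From the steps between low values, its levels rested on about 2332 fragments in the miR-215-/- library and 11560 in the miR-215+/+ library, and the 95% Clopper-Pearson interval of the fold was 4.91 to 5.37. These intervals hold counting error alone and say nothing of how animals or preparations vary. Among the 111 genes that reached 1000 FPKM in at least 1 library, only 4 had a lower ratio. Of these, 3 were microRNA genes shorter than 200 nt and the other was the alpha-defensin gene Defa4, which has near-identical copies. Reg1 and these 4 genes reached 1000 FPKM in the miR-215+/+ library only, so the bar itself favours a low ratio for them. In RNA from whole cell preparations, fewer cells of a type and less RNA per cell cannot be told apart. Reg1 is also a major product of pancreatic acinar cells. Of 15 acinar genes, 3 were kept, all with lower values in the miR-215-/- library but 0 by 2-fold, with a median log2 ratio of -0.44. They were Clps, the colipase gene, at 42.5 FPKM in miR-215-/- and 74.98 FPKM in miR-215+/+, the elastase gene Cela1 at 3.85 FPKM in miR-215-/- and 5.60 FPKM in miR-215+/+, and Ctrl, a chymotrypsin-like protease gene, at 1.74 FPKM in miR-215-/- and 2.26 FPKM in miR-215+/+. The interval of the FPKM ratio was 0.449 to 0.712 for Clps. It was 0.434 to 1.09 for Cela1 and 0.330 to 1.77 for Ctrl, and both of these included no difference. Clps is also on the list of Paneth cell markers. The other 12 were under 1 FPKM in both libraries, with sums of 0.428 FPKM in miR-215-/- and 1.51 FPKM in miR-215+/+. The lipase gene Pnlip, the amylase gene Amy2a5, Try4 and the acinar factor Ptf1a were listed at 0 in both. The whole acinar list summed to 48.5 FPKM in miR-215-/- and 84.3 FPKM in miR-215+/+, and its part in the level of Reg1 was not tested.

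Reg3a had a log2 ratio of -1.24, 2.37-fold lower in FPKM, on about 1406 fragments in the miR-215-/- library and 3213 in the miR-215+/+ library (interval of the fold 2.22 to 2.52). Among the 1220 genes that reached 100 FPKM in at least 1 library, 48 genes, or 3.93%, were at least 2-fold lower, 2.13% were higher by that much and 6.07% were apart either way. Within this set Reg1 had the 10th lowest ratio and Reg3a the 32nd lowest. Reg3b had the 79th highest ratio of the set and Reg3g the 181st highest, where the median log2 ratio of the set was -0.19.

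Reg3b and Reg3g did not follow Reg1 and Reg3a. Reg3b had a log2 ratio of 0.38 (FPKM ratio 1.30, interval 1.28 to 1.32) and Reg3g one of 0.11 (FPKM ratio 1.08, interval 1.05 to 1.10), and neither was 2-fold apart. The quotient of 2 genes within a library does not depend on how the libraries were scaled. Reg3b stood 16.9-fold above Reg1 in the miR-215-/- library and 2.53-fold above it in the miR-215+/+ library. Reg3g stood 6.39-fold above Reg1 in the miR-215-/- library and 1.16-fold above it in the miR-215+/+ library. Reg3b over Reg3g was 2.64 in the miR-215-/- library and 2.19 in the miR-215+/+ library. Reg1 had the lowest log2 ratio of the kept members, so its quotients differ more between the libraries for that reason alone.

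The summed level of the 7 Reg genes was close to equal, at 10304 FPKM in the miR-215-/- library and 10537 FPKM in the miR-215+/+ library, a ratio of 0.978. With 3 other scalings of the libraries this ratio was 1.06 to 1.11, so its direction depends on the scaling. The makeup of the sum differed. Reg1 gave 3.99% of it in the miR-215-/- library and 20.03% in the miR-215+/+ library, and Reg3a gave 2.19% in the miR-215-/- library and 5.06% in the miR-215+/+ library. Reg3b gave 67.3% of the Reg sum in the miR-215-/- library and 50.7% in the miR-215+/+ library. The share of Reg3g was 25.5% in the miR-215-/- library and 23.2% in the miR-215+/+ library.

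**Figure D2:**
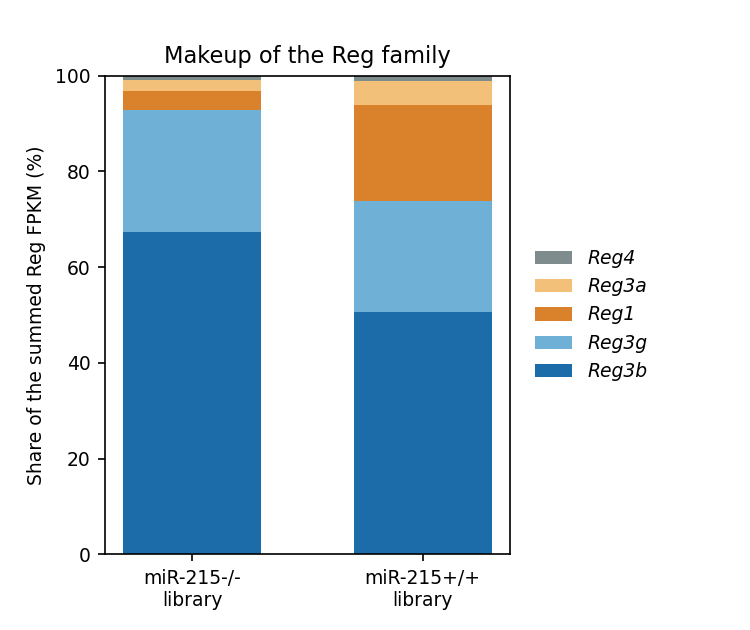
Share of the summed Reg FPKM (percent) taken by each Reg gene in the miR-215-/- library (left bar) and the miR-215+/+ library (right bar); Reg2 and Reg3d are too low to be seen. Reg1 takes 3.99% of the left bar and 20.03% of the right bar, and Reg3b 67.3% of the left and 50.7% of the right.

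Reg4 had a log2 ratio of -0.12 (FPKM ratio 0.922, interval 0.837 to 1.017, on about 809 fragments in miR-215-/- and 847 in miR-215+/+), and its sign turned with the scaling, up to 0.06. Enteroendocrine genes stood beside it with a median log2 ratio of -0.12 over 11 genes, Reg4 included, a median that crossed 0 with scaling. Of these 0 were 2-fold higher and 1, the somatostatin gene Sst, was 2-fold lower (41.7 FPKM in miR-215-/- and 104 FPKM in miR-215+/+). The most abundant of them, the incretin gene Gip, had 168 FPKM in the miR-215-/- library and 214 FPKM in the miR-215+/+ library.

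Reg3d rested on about 5 fragments in the miR-215-/- library and 10 in the miR-215+/+ library, and the interval of its FPKM ratio, 0.130 to 1.55, included no difference. Reg2 was listed at 0 in the miR-215-/- library, and its miR-215+/+ value amounted to 1 fragment, so both were under the floor of 3 fragments and no fold is given. A difference in either gene was not detectable at this depth.

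**Figure D3:**
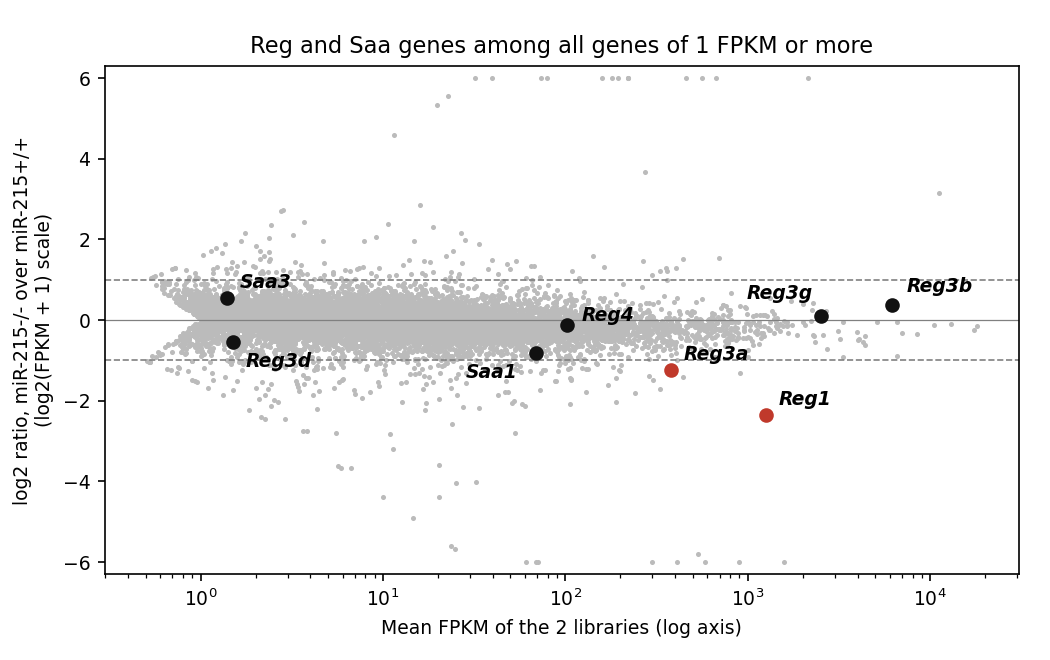
Log2 ratio of each of the 11504 kept genes (miR-215-/- over miR-215+/+, log2(FPKM + 1) scale, drawn no further than 6 either way) against its mean FPKM (log axis), grey points, with the 8 kept members named and dashed lines at 2-fold. Reg1 (-2.36) and Reg3a (-1.24) lie below the lower line, and Reg3b (0.38) and Reg3g (0.11) lie above 0 and inside the 2-fold lines at higher levels.

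Of the 7 Reg genes, 6 lie side by side within 98.2 kb of chromosome 6, and Reg4 lies alone on chromosome 3 (98222156 to 98236748). Positions are GENCODE M21's on GRCm38, the assembly of mm10. From left to right the cluster holds Reg3b (78370657 to 78373466), Reg3d (78375874 to 78378865), Reg3a (78380709 to 78383827), Reg2 (78395623 to 78408106), Reg1 (78422711 to 78428667) and Reg3g (78466269 to 78468872). Reg3d and Reg3g are read from the minus strand and the others from the plus strand, and no annotated gene overlaps any of the 10 members. The genes at the ends of the cluster, Reg3b and Reg3g, were not 2-fold apart, and both genes that were 2-fold lower lie between them. No gene outside the family that the libraries list is annotated within 250 kb of the cluster.

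**Figure D4:**
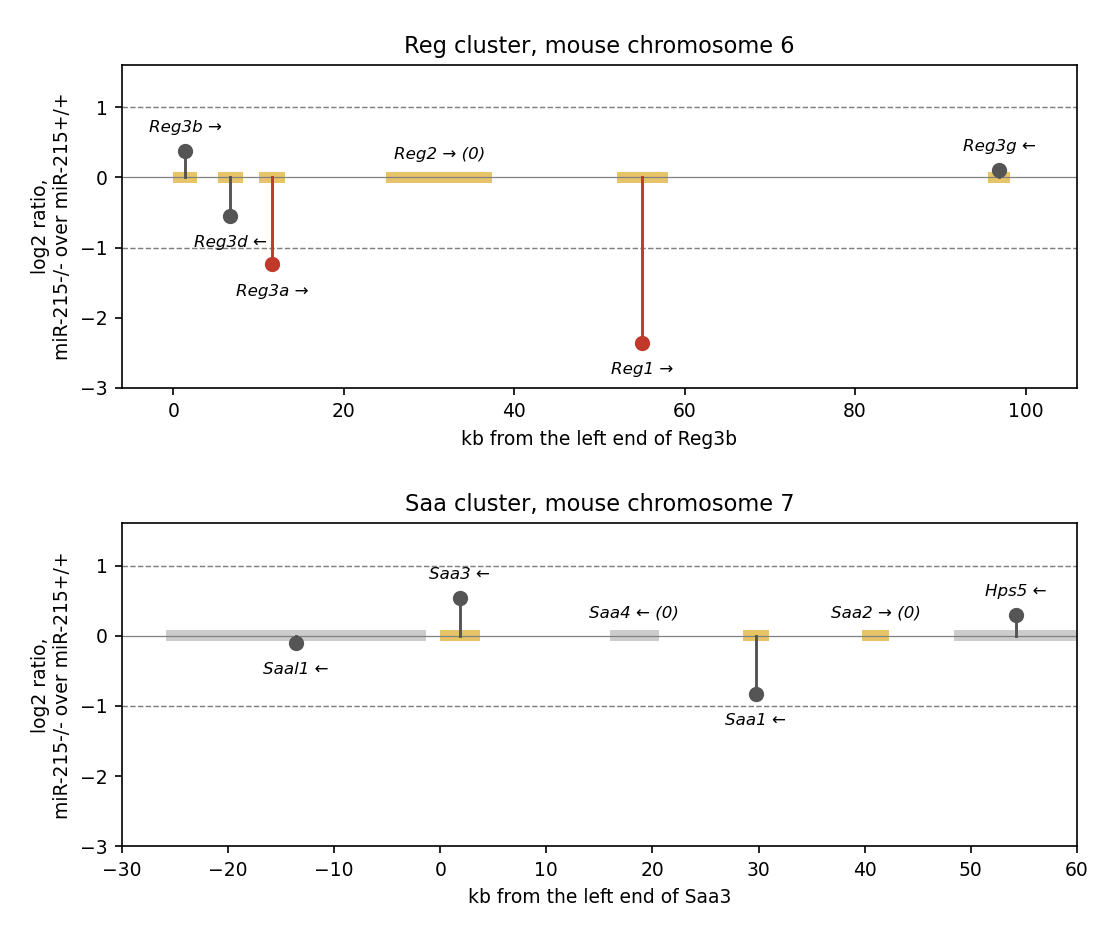
Log2 ratio (miR-215-/- over miR-215+/+) of each gene drawn at its place in the Reg cluster (top, kb from the left end of Reg3b) and the Saa cluster (bottom, kb from the left end of Saa3), with bars for gene bodies (yellow for members), arrows for the strand, (0) for genes listed at 0 in the miR-215-/- library and dashed lines at 2-fold. Reg1 at -2.36 and Reg3a at -1.24 lie between Reg3b at 0.38 and Reg3g at 0.11.

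The coding sequences of the cluster show which genes are close relatives. Identity here is the share of alignment columns with the same base, and a gap counts as a difference. By this measure Reg1 and Reg2 were 78.7% identical, Reg3b and Reg3g 75.9%, Reg3a and Reg3b 73.6% and Reg3a and Reg3g 73.3%. Reg1 and Reg3b were 56.7% identical. Reg1 and Reg3a, the genes that were 2-fold lower, were 59.7% identical and so do not form a pair by sequence. Every 50-base window of the 7 Reg transcripts was found in no other annotated gene, so their levels can be told apart where reads were that long. Not given in the sources used here was the read length.

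The 250 bases before the start of Reg1 and Reg3a, which were lower, and of Reg3b and Reg3g, which were not, are set under each other. Start and sequence are RefSeq's on GRCm38.p6. By the GENCODE positions given above, the Reg1 stretch lies inside the Reg1 gene and most of the Reg3b stretch inside the Reg3b gene. Which bases count as upstream, and the positions of motifs, therefore depend on the start used. Capitals in Reg3b mark TTCNNNGAA, the letters of a STAT site, which read the same on both strands. Capitals in Reg3a mark TTGCNNAA, the letters of a C/EBP site, and these motifs do not overlap here.
Reg1, chr6:78425733-78425982, plus strand: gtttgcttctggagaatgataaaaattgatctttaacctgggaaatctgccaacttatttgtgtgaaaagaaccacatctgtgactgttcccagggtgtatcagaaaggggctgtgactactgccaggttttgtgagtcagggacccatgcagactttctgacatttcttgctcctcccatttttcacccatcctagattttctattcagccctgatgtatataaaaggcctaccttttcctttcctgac
Reg3a, chr6:78380459-78380708, plus strand: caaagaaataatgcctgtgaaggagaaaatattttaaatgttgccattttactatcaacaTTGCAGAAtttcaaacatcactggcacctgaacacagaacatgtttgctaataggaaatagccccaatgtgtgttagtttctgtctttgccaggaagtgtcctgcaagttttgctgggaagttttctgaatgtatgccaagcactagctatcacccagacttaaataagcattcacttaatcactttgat
Reg3b, chr6:78370635-78370884, plus strand: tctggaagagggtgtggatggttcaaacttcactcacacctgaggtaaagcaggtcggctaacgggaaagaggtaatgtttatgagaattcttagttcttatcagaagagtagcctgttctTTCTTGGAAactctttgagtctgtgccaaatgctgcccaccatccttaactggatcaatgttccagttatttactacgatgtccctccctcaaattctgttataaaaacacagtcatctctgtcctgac
Reg3g, chr6:78468875-78469124, minus strand: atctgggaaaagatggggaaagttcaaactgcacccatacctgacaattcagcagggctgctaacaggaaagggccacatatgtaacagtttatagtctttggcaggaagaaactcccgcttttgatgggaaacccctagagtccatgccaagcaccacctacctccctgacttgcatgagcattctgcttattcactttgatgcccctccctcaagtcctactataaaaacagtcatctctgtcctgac
The Reg3b and Reg3g stretches were 68.4% identical, those of Reg1 and Reg3a 49.5%, with gaps again counted as differences. Between a Reg and a Saa stretch the identity ran from 43.1% to 50.3%, so the value for Reg1 and Reg3a lay within that range. Of these 4 genes only Reg3b held the STAT letters, at position -129 from RefSeq's start. Among all 10 members, Reg3b and Reg3d held them within the window of 250 bases before to 50 after the start, where 8.30% of 32851 mouse promoters did. The letters TGTTTAC of a FOX site, on either strand, were found in Reg4, against 3.65% of all promoters. A match is a run of letters and not a measured binding site.

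The serum amyloid A genes lie on chromosome 7, Saa3 at 46711998 to 46715700, Saa1 at 46740497 to 46742980, both on the minus strand, and Saa2 at 46751790 to 46754313 on the plus strand. Saa1 had a log2 ratio of -0.83, 1.79-fold lower in FPKM on about 201 fragments in the miR-215-/- library and 347 in the miR-215+/+ library (interval of the fold 1.498 to 2.14), and was not counted as 2-fold apart. Of all kept genes 3.27% had a lower ratio. RefSeq lists Saa2 as a synonym of Saa1 and Saa1 as a synonym of Saa2, so the row named Saa1 can be either gene, depending on the annotation used. Their coding sequences were 95.1% identical. Of the 50-base windows of Saa1, 85.2% were found in no other gene, and of those of Saa2 86.7%, and at 100 bases all were unique. How shared fragments were assigned was not given in the sources used here, so the value of either gene alone is uncertain. Their sum, 49.5 FPKM in miR-215-/- and 88.7 FPKM in miR-215+/+, does not depend on that split, although it does rest on the listed 0 of Saa2.

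Saa1 and Saa2 are close to copies upstream of the start too, although Saa2 was listed at 0. Their 250 bases before RefSeq's start were 94.8% identical, and the last bases of the Saa2 stretch lie inside the GENCODE position of Saa2. Capitals again mark TTGCNNAA, and neither stretch held TTCNNNGAA, TGTTTAC or TTGCNNNAA, the 3 motifs searched first.
Saa1, chr7:46742981-46743230, minus strand: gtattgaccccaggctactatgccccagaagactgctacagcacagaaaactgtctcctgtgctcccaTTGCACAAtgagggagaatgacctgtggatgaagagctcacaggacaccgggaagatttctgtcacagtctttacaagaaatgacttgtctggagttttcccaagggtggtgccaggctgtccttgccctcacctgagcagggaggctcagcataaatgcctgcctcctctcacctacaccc
Saa2, chr7:46751583-46751832, plus strand: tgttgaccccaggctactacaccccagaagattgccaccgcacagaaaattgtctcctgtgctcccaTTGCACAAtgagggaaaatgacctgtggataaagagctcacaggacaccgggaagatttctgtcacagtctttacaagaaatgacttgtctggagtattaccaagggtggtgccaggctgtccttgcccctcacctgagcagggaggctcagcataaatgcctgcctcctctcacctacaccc
TTGCNNAA on either strand, the spacing of a C/EBP site, was searched after these sequences had been seen. It was in 5 of the 10 members (Reg2, Reg3a, Saa1, Saa2 and Saa3) and in 10.8% of all promoters. In both Saa1 and Saa2 it read TTGCACAA, at position -182 in Saa1 and -183 in Saa2. TTGCNNNAA was in Reg2, Reg4 and Saa3, against 9.56% of all promoters.

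Saa3, a form made by macrophages and adipocytes among other cells, rested on about 6 fragments in the miR-215-/- library and 3 in the miR-215+/+ library. The interval of its FPKM ratio of 1.93, 0.413 to 11.9, included no difference. Macrophage, dendritic cell and neutrophil markers stood beside it with 9 of 11 kept genes above 0 and a median log2 ratio of 0.52. The furthest from 0 was the complement gene C1qa, at 12.3 FPKM in miR-215-/- and 4.93 FPKM in miR-215+/+. The 2 below 0 included the most abundant, Tyrobp, at 22.1 FPKM in miR-215-/- and 30.1 FPKM in miR-215+/+. The summed level of these markers was 113 FPKM in miR-215-/- and 99.3 FPKM in miR-215+/+. None of the listed ones was at 0 in both, and their part in Saa3 was not tested. Of 7 adipocyte genes 2 were kept and 3 were listed at 0 in both. Hepatocytes are the main source of circulating serum amyloid A. Of 10 genes on their list 5 were kept, 3 with a log2 ratio below 0 and 2 above. Their median of -0.74 was the value of Ttr, on about 16 fragments in miR-215-/- and 33 in miR-215+/+. Of the kept genes 0 were 2-fold higher and 1 was 2-fold lower. The 2-fold lower one was the apolipoprotein gene Apoa2, at 2.53 FPKM in miR-215-/- and 11.5 FPKM in miR-215+/+. The most abundant, Apoc3, an apolipoprotein gene that enterocytes also express, had 2314 FPKM in miR-215-/- and 4374 FPKM in miR-215+/+. The urea cycle gene Cps1 had 109 FPKM in miR-215-/- and 89.9 FPKM in miR-215+/+, and Ttr, the transthyretin gene, had 1.66 FPKM in miR-215-/- and 3.44 FPKM in miR-215+/+. The albumin gene Alb had 0.108 FPKM in miR-215-/- and 0.335 FPKM in miR-215+/+, and Ahsg and Fgb were listed at 0 in both. The list summed to 2429.7 FPKM in miR-215-/- and 4482 FPKM in miR-215+/+, most of it Apoc3, and its part in the level of Saa1 was not tested.

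On the log2(FPKM + 1) scale, which understates the change of low genes, no kept gene upstream of Reg and Saa genes was as far from 0 as Reg1 or Reg3a. In FPKM ratio the low gene Tnf, at 0.433 (interval 0.182 to 1.06), was close to Reg3a at 0.423. Of the 25 genes for IL-22, IL-17 and IL-6 receptors and STAT3 signalling, 21 were kept, 0 were 2-fold higher and 0 were 2-fold lower, with a median log2 ratio of -0.01, which became 0.11 to 0.17 under the other scalings, where the median of all kept genes became 0.06 to 0.12. The IL-22 receptor gene Il22ra1 had 74.0 FPKM in the miR-215-/- library and 76.1 FPKM in the miR-215+/+ library, and Stat3 had 56.2 FPKM in the miR-215-/- library and 56.5 FPKM in the miR-215+/+ library. Il10rb, the shared chain of that receptor and the most abundant of the list, had 95.2 FPKM in miR-215-/- and 116 FPKM in miR-215+/+. The gene furthest from 0, just inside 2-fold, was Cebpb, a transcription factor of the acute phase response, at 6.56 FPKM in miR-215-/- and 14.1 FPKM in miR-215+/+ (FPKM ratio 0.465, interval 0.356 to 0.607), and it passed 2-fold with a pseudocount of 0.1. Of 16 upstream cytokines and bacterial sensors, 7 were kept and 0 were 2-fold apart in either direction, with a median of -0.39. That median was the value of Il1b, on about 6 fragments in miR-215-/- and 11 in miR-215+/+. The interval of the Il1b FPKM ratio, 0.160 to 1.55, included no difference. Il22, Il17f and Il6 were listed at 0 in both libraries. Il18, the most abundant, had 75.5 FPKM in miR-215-/- and 106.5 FPKM in miR-215+/+.

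Other epithelial genes induced by IL-22 or IL-17 went both ways. Of the 22 found in the libraries 14 were kept, and 2 of these were higher by 2-fold and 1 lower, with a median of 0.34. The oxidase gene Duox2 had 96.7 FPKM in the miR-215-/- library and 37.5 FPKM in the miR-215+/+ library, and the mucin gene Muc4 had 5.01 FPKM in miR-215-/- and 1.87 FPKM in miR-215+/+. The chemokine gene Ccl20, at 2.34 FPKM in miR-215-/- and 5.88 FPKM in miR-215+/+, was 2-fold lower as deposited but not under any of the 3 other scalings.

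Of 17 other acute phase genes 2 were kept and 8 were listed at 0 in both libraries. The kept ones were complement genes, Cfb at 105 FPKM in miR-215-/- and 160 FPKM in miR-215+/+ and C3 at 7.88 FPKM in miR-215-/- and 4.02 FPKM in miR-215+/+. Of 15 kept genes of other secreted antimicrobial proteins, 2 were 2-fold higher and 2 were 2-fold lower, with a median of -0.02 that crossed 0 with scaling. The ribonuclease gene Ang had 21.3 FPKM in miR-215-/- and 75.4 FPKM in miR-215+/+, Mptx1 (listed as 1810030J14Rik) 1.33 FPKM in miR-215-/- and 6.03 FPKM in miR-215+/+, and the protease inhibitor gene Slpi 5.18 FPKM in miR-215-/- and 1.69 FPKM in miR-215+/+. Defb37, counted among the higher ones, was at 2.05 FPKM in miR-215-/- and listed at 0 in miR-215+/+. Its value came to just under 3 fragments, so it was at the floor, the interval of its ratio, from 0.399 upward without bound, included no difference, and no fold is given. The lectin gene Zg16, the most abundant, had 7443 FPKM in the miR-215-/- library and 9439.5 FPKM in the miR-215+/+ library.

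Of 8 genes for receptors and binding partners of Reg and serum amyloid A proteins, 6 were kept, 0 were 2-fold higher and 1 was 2-fold lower, with a median of 0.05. The lower one was Cd36, a fatty acid and lipoprotein receptor, at 44.3 FPKM in miR-215-/- and 105.9 FPKM in miR-215+/+. Extl3, described as the receptor of Reg proteins, had 4.33 FPKM in miR-215-/- and 3.41 FPKM in miR-215+/+. Fpr2, a receptor of serum amyloid A on leukocytes, was listed at 0 in miR-215-/- and at 0.0943 FPKM in miR-215+/+.

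Markers of the cells that make these proteins were set beside the differences. Enterocyte markers had a median log2 ratio of -0.12 over 14 genes with 0 apart by 2-fold, and summed to 64713 FPKM in miR-215-/- and 71840 FPKM in miR-215+/+. Paneth cell markers without the alpha-defensins had a median of 0.04 over 10 genes with 0 apart by 2-fold, and went both ways, 5 above 0 and 5 below. Lyz1, the lysozyme gene and the most abundant of them, had 832 FPKM in miR-215-/- and 638 FPKM in miR-215+/+. Ang4, an antimicrobial ribonuclease gene and the furthest from 0 at a log2 ratio of -0.97, had 66.5 FPKM in miR-215-/- and 131 FPKM in miR-215+/+, and Clps, at -0.80, was next. Goblet cell markers had a median of -0.04 over 9 genes with 0 apart by 2-fold, and this median and that of the enterocyte list crossed 0 with scaling. Genes of the proximal small intestine had a median of -0.43 over 8 kept genes and those of the distal small intestine one of -0.31 over 10, and both medians were below 0 under every scaling. The proximal list summed to 7342 FPKM in miR-215-/- and 9489 FPKM in miR-215+/+, and 1 gene, the alcohol dehydrogenase gene Adh1, was 2-fold lower (241 FPKM in miR-215-/- and 647 FPKM in miR-215+/+). The distal list summed to 5922 FPKM in miR-215-/- and 7283 FPKM in miR-215+/+, with 1 gene, Tmigd1, 2-fold lower as deposited (113 FPKM in miR-215-/- and 253 FPKM in miR-215+/+) but not under 1 of the scalings. Both regional lists were thus lower in sum in the miR-215-/- library, as was the whole library (683884 FPKM in miR-215-/- and 750631 FPKM in miR-215+/+). Most of the proximal sum was Fabp1, also on the enterocyte list, at 6247 FPKM in miR-215-/- and 7846 FPKM in miR-215+/+. Most of the distal sum was Fabp6, at 3554 FPKM in miR-215-/- and 4354 FPKM in miR-215+/+. Fibroblast and smooth muscle markers were above 0 in 11 of 11 kept genes, 6 of them 2-fold higher, and summed to 62.3 FPKM in miR-215-/- and 18.9 FPKM in miR-215+/+. Stress and glucocorticoid response genes were above 0 in 10 of 11, 5 of them 2-fold higher, among them Sgk1 at 503 FPKM in miR-215-/- and 217 FPKM in miR-215+/+. No listed gene of these epithelial, stromal and stress lists was at 0 in both libraries, and the part of their shifts in the levels of Reg1, Reg3a and Saa1 was not tested.

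**Figure D5:**
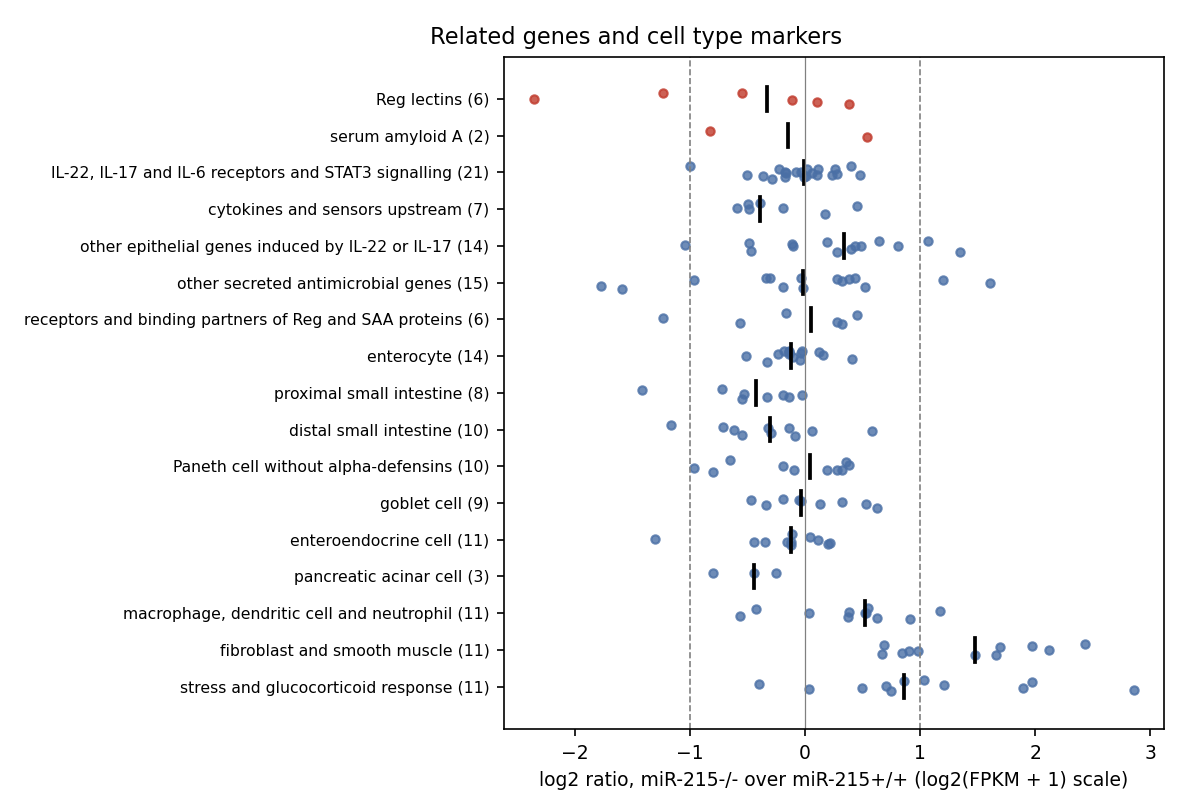
Log2 ratio (miR-215-/- over miR-215+/+, log2(FPKM + 1) scale) of the kept genes of 17 lists, 1 point per gene, black bars for medians, the number of genes in brackets and dashed lines at 2-fold. The Reg genes (red, top) span -2.36 to 0.38, while the receptor and STAT3 signalling genes centre on -0.01 with none past 2-fold.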

How the data were processed

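Polyadenylated RNA of 1 miR-215-/- and 1 miR-215+/+ preparation of small intestinal epithelia was sequenced, per the labels' protocols after RNeasy extraction and with a stranded TruSeq kit. The deposited values are FPKM, which no header names. The unit was inferred from Cuffnorm 2.2.1 in the submitters' processing notes and from the values. Alignment tools in these notes are Bowtie2 2.2.3 and TopHat2 2.0.13, with SAMtools 0.1.19, and the build is mm10. Settings, annotation and the scaling method were not given in the sources used here. Summed FPKM were 683884 in miR-215-/- and 750631 in miR-215+/+.

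Fragments were estimated from the low values of 3086 protein-coding genes with 1 annotated transcript. The worth of 1 fragment was 0.099 FPKM in miR-215-/- and 0.1025 FPKM in miR-215+/+ for a transcript of 1 kb, and inversely less or more for others, after 207.5 nt were taken off each length. Of the genes of few fragments used for this, 67.1% in miR-215-/- and 68.7% in miR-215+/+ were within 0.05 of a whole number. The median length of RefSeq-linked transcripts was used; with the longest Saa3 transcript, which nothing shows to be the one present, its ratio interval would be 1.05 to 3.46. The steps were tested on simulated data. Of the listed symbols, 98.0% matched GENCODE M21.

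Members, gene lists and motifs were chosen with earlier results of these data known. Genes named from a list came from its most abundant gene, its 2 of largest log2 ratio and those past 2-fold, up to 4. Rpl26, Il22ra1, Stat3, Extl3, Fpr2, Alb, Cps1, Ttr and genes at 0 were added for their role, after their values were seen. Protein sequences were not used here. Python 3.11.15, SciPy 1.17.1 and Biopython 1.88 were used. Alternatives were 3 scalings, pseudocounts of 0.1 and 5, no filter or a filter of 5 or, added later, 100 FPKM, other transcript lengths and shorter motif windows.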

Additional observations from a re-analysis of the deposited data

How the results depend on the processing

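Reg1 and Reg3a were the 2 members at least 2-fold lower, and 0 members were 2-fold higher, under every scaling, pseudocount and filter tried. Over the scalings and pseudocounts the log2 ratio ranged from -2.36 to -2.18 for Reg1, from -1.24 to -1.06 for Reg3a, from 0.38 to 0.56 for Reg3b, from 0.11 to 0.29 for Reg3g and from -0.84 to -0.65 for Saa1. That of Reg4 changed sign, from -0.12 to 0.06. The scalings to equal sums, equal upper quartiles and equal sums without the members, short genes and the 10 highest genes moved the median of all kept genes from -0.05 to 0.07, 0.06 and 0.12. They moved the summed Reg ratio from 0.978 to 1.07, 1.06 and 1.11. The share of all genes at least 2-fold lower and higher was 3.14% and 2.95% with a pseudocount of 0.1, 1.04% and 0.522% with a pseudocount of 5, 1.01% and 0.661% with no filter, and 3.93% and 2.13% with a filter of 100 FPKM, where the choice itself sets how many genes pass. With equal upper quartiles 199 genes were higher and 193 lower, against 154 higher and 235 lower as deposited. Among the gene lists, the 6 fibroblast and smooth muscle genes at least 2-fold higher became 10 with a pseudocount of 0.1 and 2 with one of 5, and the 2 antimicrobial genes higher became 0 with a pseudocount of 5. Counting leaves Reg2, Reg3d and Saa3 unresolved. No paired analysis was possible because each genotype has 1 library.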

Other observations

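The genes next to the serum amyloid A cluster differed by less than 2-fold. Saal1 had 1.43 FPKM in miR-215-/- and 1.599 FPKM in miR-215+/+, and Hps5, an organelle biogenesis gene next to Saa2, had 25.4 FPKM in miR-215-/- and 20.6 FPKM in miR-215+/+. Saa4, which lies between Saa3 and Saa1, was listed at 0 in both. Of 10 kept genes of other lectins of the epithelium, 0 were 2-fold apart in either direction, with a median log2 ratio of -0.15 that crossed 0 under 1 of the scalings. The largest ratio in size among them was that of Clec2h, a C-type lectin-related gene, at 911 FPKM in miR-215-/- and 1381 FPKM in miR-215+/+.

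Other cells that an epithelial preparation can hold were measured through their markers. T cell and innate lymphoid cell markers, of the lymphocytes that make IL-22, had a median log2 ratio of 0.09 over 10 kept genes with 0 apart by 2-fold. Of 8 kept B and plasma cell genes 1 was 2-fold higher, the joining chain gene Jchain (listed as Igj), at 58.6 FPKM in miR-215-/- and 20.3 FPKM in miR-215+/+. Of 3 kept endothelial genes 1 was 2-fold higher. Stem and proliferating cell markers had a median of 0.37 over 10 genes and tuft cell markers one of 0.23 over 5, with 0 apart by 2-fold in either list as deposited.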
